A study of Mus musculus with 2 samples.

Results

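The 10 genes Ptgs1, Ptgs2, Ptges, Ptgis, Ptgds, Hpgd, Ptger1, Ptger2, Ptger4 and Ptgfr make, degrade or sense prostaglandins, and were described in osteoblastic cells of Ebf2-/- and Ebf2+/- mice. Ebf2 encodes a DNA-binding regulator, early B cell factor 2, and by its title the series asks how cells other than blood stem cells keep those stem cells in balance. A gene was followed through each probe set, a group of short oligonucleotides on the array, to which the platform annotation gives that gene symbol and no other. Of the 10 genes, 9 had at least 1 such probe set, 20 probe sets in all, among 18194 genes and 45101 probe sets on the array. Ptgs1 had 0 and is not analysed here. The 10 genes were selected on pathway membership with the Ebf2-/- over Ebf2+/- ratios of these same arrays already known, the low Hpgd ratio among them, so their values are a description and were given no test.

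Prostaglandins are lipid signals made from arachidonic acid, a fatty acid that phospholipases release from membranes. The cyclooxygenases (Ptgs1 and Ptgs2) turn it into an unstable intermediate, terminal synthases shape that into prostaglandin E2 (Ptges), prostacyclin (Ptgis) or prostaglandin D2 (Ptgds), and the hydroxyprostaglandin dehydrogenase Hpgd starts the breakdown of prostaglandin E2. The products act on G protein-coupled receptors, among them Ptger1, Ptger2 and Ptger4 for prostaglandin E2 and Ptgfr for prostaglandin F2-alpha. In bone, prostaglandin E2 is made by osteoblasts and is known to act on both bone formation and bone resorption.

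The Ebf2-/- cells and the Ebf2+/- cells each came from tibia and femur of C57Bl/6 embryos at stage E18.5, carried a lacZ marker for Ebf2, were sorted for its enzyme activity with the fluorogenic substrate FDG, and grew without passage in alpha MEM with 10% serum. Both groups carry the marker, and the set against which the knockout is read is heterozygous, with no wild-type array analysed here. There was 1 array per genotype. The labels name 3 mice per genotype without saying whether their RNA was pooled, so each value below is a lone measurement with no replicate behind it and no p-value was computed.

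Values are MAS5 signals as deposited by the authors, on a linear scale in arbitrary units. Signal was called above background when it exceeded a floor of 23.8 on the Ebf2-/- array and 17.8 on the Ebf2+/- array, the 95th percentile of 86 probe sets for odour, pheromone and taste receptors. Lower signals were set to the floor before a ratio of Ebf2-/- over Ebf2+/- was taken, and a gene above background on 1 array only has a fold that is a bound, written "at least". Probe sets of the same gene differed in log2 ratio with a pooled SD of 0.44, a factor of 1.36, over 4119 genes, a spread that does not include animals or cultures. With 1 array a side, the number of arrays is what limits precision. Among osteoblast markers, the bone matrix genes Col1a1 (12784 in Ebf2-/- and 5478 in Ebf2+/-), Col1a2 (15008 in Ebf2-/- and 8597 in Ebf2+/-) and Sparc (17570.4 in Ebf2-/- and 12049 in Ebf2+/-) were far above background, while the late markers Ibsp, Dmp1 and Phex were not above background on either array. The ratio of 3' to 5' control probe sets, which reflects how intact the RNA was, stood at 2.79 in Ebf2-/- and 1.97 in Ebf2+/- for beta-actin, and 1.60 in Ebf2-/- and 1.30 in Ebf2+/- for Gapdh.

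The breakdown enzyme and the inducible cyclooxygenase were lower in the Ebf2-/- cells, the prostaglandin E2 receptor Ptger4 was higher, and the synthases for prostaglandin E2 and prostacyclin were nearly level by their brightest probe sets. With the brightest probe set, by mean log2 signal, standing for each gene, 6 of the 9 genes were above background on at least 1 array. Of these 6, Ptger4 and Ptgds were at least 2-fold higher in Ebf2-/-, Hpgd and Ptgs2 at least 2-fold lower, and Ptges and Ptgis differed by less. Among the 11785 genes above background on at least 1 array, the share past 2-fold was 6.3% upward and 3.46% downward in Ebf2-/-. With so few genes, and since they were proposed for such ratios, nothing is read from their share against that background. With the arrays scaled to spike-in transcripts, 566 of all genes passed 2-fold upward and 557 downward, against 742 and 408 as deposited.

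**Figure D1:**
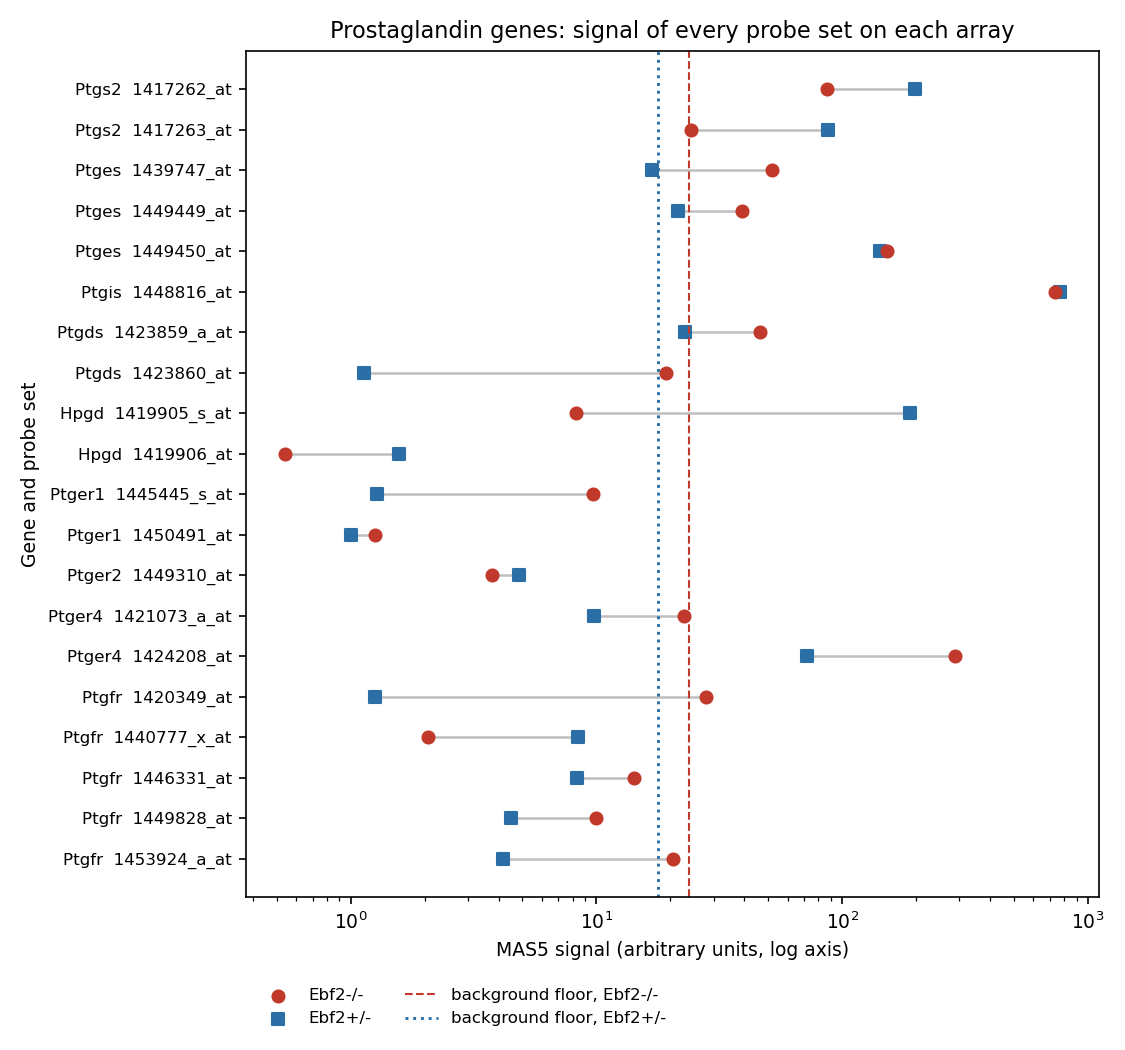
MAS5 signal (log axis) of the 20 probe sets of 9 prostaglandin genes on the Ebf2-/- array (circles) and the Ebf2+/- array (squares), with the background floor of each array as a vertical line (23.8 for Ebf2-/-, 17.8 for Ebf2+/-). The widest separation is that of the brighter Hpgd probe set, at 8.25, under the floor, in Ebf2-/- and 189.6 in Ebf2+/-. A Ptgfr probe set, at 28.0 in Ebf2-/- and 1.25, under the floor, in Ebf2+/-, is separated almost as widely. Below the floor on both arrays lie 10 probe sets.

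The start regions of Hpgd, Ptgs2 and Ptger4, the genes past 2-fold whose brighter signal stood well clear of the floor, are printed here because Ebf2 binds DNA and the letters it is known to favour can be looked for in them. The windows come from RefSeq (build GRCm38.p6), 5' to 3' on the strand of the gene, with 250 bases before the annotated start and the first 20 after it. The Hpgd window is chr8:56294302-56294571 on the plus strand, the Ptgs2 window chr1:150099781-150100050 on the plus strand, and the Ptger4 window chr15:5244168-5244437 on the minus strand. Capitals mark every match to the motifs named below.
Hpgd: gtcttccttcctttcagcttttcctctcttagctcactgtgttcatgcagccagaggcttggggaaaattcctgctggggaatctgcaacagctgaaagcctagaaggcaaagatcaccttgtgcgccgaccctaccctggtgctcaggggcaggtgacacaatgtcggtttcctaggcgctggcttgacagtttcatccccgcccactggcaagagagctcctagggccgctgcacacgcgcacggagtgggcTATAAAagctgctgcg
Ptgs2: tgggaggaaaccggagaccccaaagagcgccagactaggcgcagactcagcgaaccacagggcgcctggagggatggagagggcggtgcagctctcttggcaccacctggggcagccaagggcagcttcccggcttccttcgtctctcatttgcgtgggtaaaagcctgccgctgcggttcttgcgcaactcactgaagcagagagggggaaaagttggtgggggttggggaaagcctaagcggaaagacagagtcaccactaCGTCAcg
Ptger4: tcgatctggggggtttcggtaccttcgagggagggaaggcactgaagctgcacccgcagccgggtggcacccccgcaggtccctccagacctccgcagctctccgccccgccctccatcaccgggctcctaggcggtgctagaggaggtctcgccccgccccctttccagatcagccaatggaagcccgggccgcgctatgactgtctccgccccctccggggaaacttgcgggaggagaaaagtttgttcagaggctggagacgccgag

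RefSeq start windows were matched for 8 of the 10 genes, all but Ptgis and Ptger1. On both strands of these windows, counted to 50 bases after the start, the paired EBF core CCCNNGGG was found in 0 of 8, against 13.7% of all 32851 windows. The full cAMP response element TGACGTCA, the site of factors that answer the signal of Ptger2 and Ptger4, was also found in 0 of 8, against 1.79% of all windows. Its shorter core TGACG, which lies within the full element, was found in 1 of 8, against 20.8% of all windows, in the Ptgs2 window on the opposite strand from position 14, where position 1 is the first base after the 250. The TATA box TATAAA was found in 1 of 8, against 13.6% of all windows, in the Hpgd window from position 5, after the annotated start. These matches describe letters and not binding, and their absence says only that these letters do not occur in these windows.

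Hpgd, which oxidises prostaglandin E2 and so ends its action, had the lowest ratio of the 9 genes. Its brighter probe set read 8.25 in Ebf2-/- cells and 189.6 in Ebf2+/- cells. The Ebf2-/- signal was under the floor, and Hpgd was therefore at least 7.96-fold lower in Ebf2-/- (log2 ratio -2.99). It had the 7th lowest ratio of those 11785 genes, with bounds taken at their value. The ID of this probe set ends in _s_at, the mark of probes that can match more than 1 transcript. The other probe set read 0.54 in Ebf2-/- and 1.57 in Ebf2+/-, below background on both arrays, so the difference rests on 1 probe set. Macrophage and leukocyte markers had the same direction, with a summed signal over 15 genes of 2074 in Ebf2-/- and 8834 in Ebf2+/-, and their part in the Hpgd and Ptgs2 differences was not tested. In bulk RNA, fewer cells of a type and less RNA per cell cannot be told apart.

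Ptgs2, the cyclooxygenase that cells switch on in response to cytokines, growth factors and mechanical load, was lower in Ebf2-/- by both of its probe sets. The brighter read 87.0 in Ebf2-/- and 198 in Ebf2+/-, 2.28-fold lower in Ebf2-/-. The other read 24.2 in Ebf2-/-, just above the floor, and 87.8 in Ebf2+/-, 3.63-fold lower in Ebf2-/-. The log2 ratio of the brighter probe set was -1.19, and -0.86 with a pseudocount of 50, which is under 2-fold.

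Among the terminal synthases, Ptges, the inducible prostaglandin E2 synthase that works with Ptgs2, gave different sizes by its 3 probe sets. The brightest was level, at 153 in Ebf2-/- and 142 in Ebf2+/-, a log2 ratio of 0.10. Another read 39.1 in Ebf2-/- and 21.4 in Ebf2+/- (1.82-fold higher). The remaining probe set read 51.8 in Ebf2-/- and 16.8, under the floor, in Ebf2+/- (at least 2.91-fold higher). As a mean over the 3, the log2 ratio was 0.84. The probe sets of Ptges thus all had the higher signal in Ebf2-/-, but only the dimmest pair by more than the factor of 1.36 between probe sets, and with the arrays scaled to spike-in transcripts the brightest had a log2 ratio of -0.03.

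Ptgis, the prostacyclin synthase, was far above background on both arrays. Its 1 probe set read 736 in Ebf2-/- and 772 in Ebf2+/-, a log2 ratio of -0.07, well inside the spread between probe sets. Under the 10 other processing settings tried, that log2 ratio stayed between -0.20 and -0.00.

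Ptgds, which makes prostaglandin D2, stood near the floor. Its brighter probe set read 46.5 in Ebf2-/- and 23.0 in Ebf2+/-, 2.02-fold higher in Ebf2-/-. The other read 19.2 in Ebf2-/- and 1.14 in Ebf2+/-, below the floor on both arrays. The fold stands at the 2-fold mark, and the log2 ratio of 1.02 was under 1 in 6 of the 10 other settings, with a lowest value of 0.40.

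Of the receptors, Ptger4, which raises cAMP when prostaglandin E2 binds and carries much of the hormone's bone-forming action in rodents, had the highest ratio of the 9 genes. Its brighter probe set read 287 in Ebf2-/- and 72.0 in Ebf2+/-, 3.98-fold higher in Ebf2-/- (log2 ratio 1.99), the 125th highest ratio of the 11785 genes. Its other probe set read 22.7 in Ebf2-/- and 9.78 in Ebf2+/-, below the floor on both arrays, so the difference rests on 1 probe set. Ptger4 was past 2-fold under all 10 other settings, with log2 ratios between 1.21 and 2.02. The plot of the 6 genes across settings shows Ptger4 past 2-fold in all, and Hpgd in the 9 other settings that give it a value. Ptges and Ptgis stay within 2-fold throughout.

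**Figure D2:**
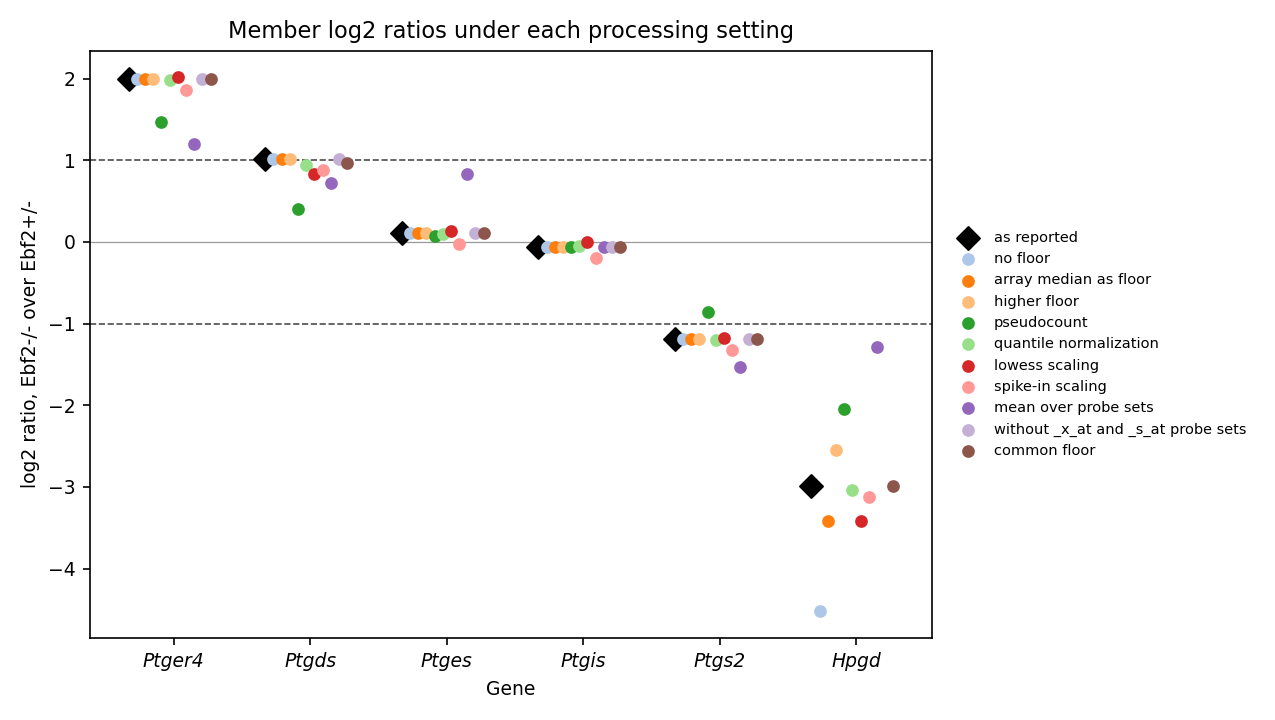
Log2 ratio of Ebf2-/- over Ebf2+/- of the 6 prostaglandin genes above background as reported (diamonds) and under 10 other processing settings (circles), with dashed lines at 2-fold. Ptger4 stays above 1 in all, Hpgd stays below -1 in the 9 that give it a value, and Ptgds crosses 1.

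The other 3 receptors were not above background by the probe set used for the gene. Ptger2, which also raises cAMP, read 3.76 in Ebf2-/- and 4.85 in Ebf2+/-. Ptger1, which signals through calcium, had its brighter probe set at 9.69 in Ebf2-/- and 1.28 in Ebf2+/-. Ptgfr, the receptor for prostaglandin F2-alpha, had 5 probe sets, of which 1 stood above background, at 28.0 in Ebf2-/- and 1.25 in Ebf2+/-, a fold of at least 1.57. Of its 5 probe sets, 4 had the higher raw signal in Ebf2-/-, but signals below the floor have no order. Ptger4 was thus the only one of the 4 receptors above background on both arrays.

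**Figure D3:**
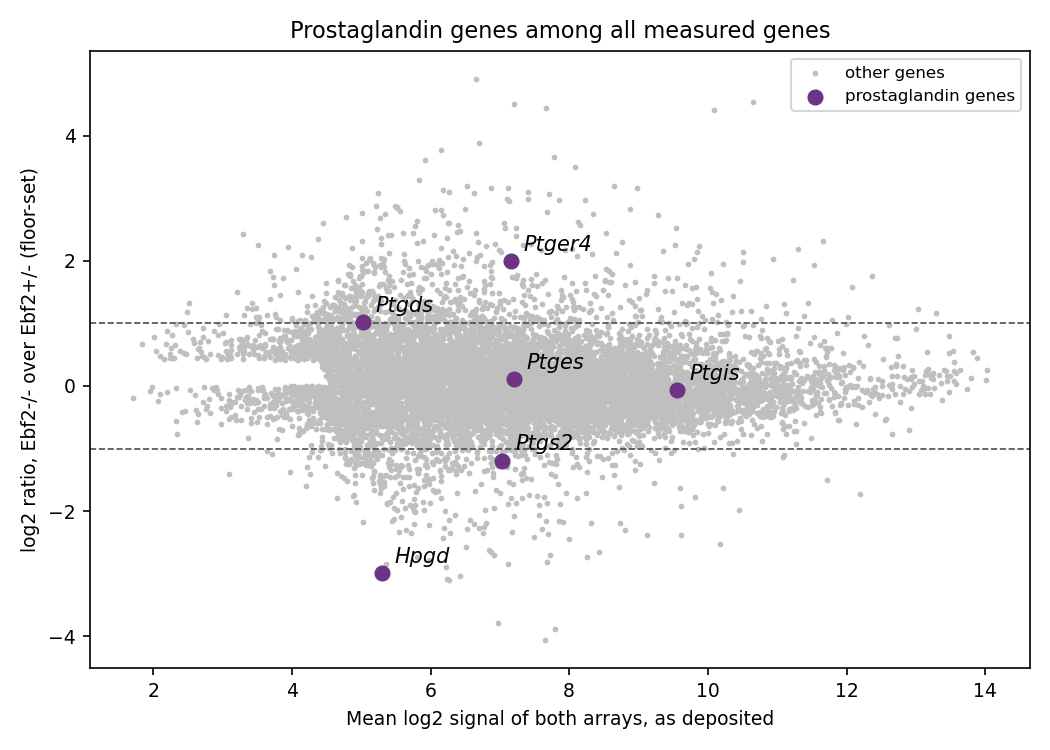
Floor-set log2 ratio of Ebf2-/- over Ebf2+/- against mean log2 signal for all genes above background with a fold (grey) and the 6 prostaglandin genes above background (purple), with dashed lines at 2-fold. Ptger4 lies at 1.99 and Hpgd at -2.99, near the edges of the cloud, while Ptges and Ptgis lie in its centre, and the gap in the grey points at low signal comes from the unequal floors of the arrays.

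Upstream of the cyclooxygenases, arachidonate release was lower at its main enzyme. Pla2g4a, the cytosolic phospholipase A2 that supplies the cyclooxygenases, read 138 in Ebf2-/- and 319 in Ebf2+/-, a log2 ratio of -1.21, so that it was 2.31-fold lower in Ebf2-/-. Of the 11 measured genes of arachidonate release, Pla2g4a was the 1 gene at least 2-fold lower and 0 were at least 2-fold higher, and the list's median log2 ratio was -0.16, beside 0.03 over all measured genes. Dagla, a lipase of the endocannabinoid route, read 24.6 in Ebf2-/- and 47.2 in Ebf2+/-, the secreted-type phospholipase Pla2g12a 55.4 in Ebf2-/- and 99.8 in Ebf2+/-, and Anxa1, a protein known to restrain phospholipase A2, 5066 in Ebf2-/- and 7288 in Ebf2+/-. All 3 were under 2-fold. Pla2g4a, Ptgs2 and Hpgd, 1 gene each from the release, conversion and breakdown steps, thus had the lower signal in Ebf2-/-. These genes do not speak for their whole steps, since the other measured genes of release stayed within 2-fold and Ptgs1 had no probe set.

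Other terminal enzymes differed little. Among 6 measured synthases, 1 passed 2-fold upward in Ebf2-/- and 0 downward, and their median log2 ratio was -0.26. The exception was Ptges2, a membrane-associated prostaglandin E synthase, with 81.1 in Ebf2-/- and 32.8 in Ebf2+/-, 2.47-fold higher, or 0.66 on the log2 scale once a pseudocount of 50 was added. Akr1b8, an aldo-keto reductase, read 349 in Ebf2-/- and 598 in Ebf2+/-. The thromboxane synthase Tbxas1 read 29.4 in Ebf2-/- and 38.1 in Ebf2+/-, and Prxl2b 322 in Ebf2-/- and 400.5 in Ebf2+/-.

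Transport and the later steps of breakdown did not share the size of the Hpgd difference. Among 7 measured genes 0 passed 2-fold in either direction, and their median log2 ratio was -0.13. The prostaglandin importer Slco2a1, which brings prostaglandin E2 into cells, where Hpgd acts, read 91.6 in Ebf2-/- and 137 in Ebf2+/-, the exporter Abcc4 70.5 in Ebf2-/- and 117 in Ebf2+/-, and Slco3a1 152 in Ebf2-/- and 112 in Ebf2+/-. Ptgr2, a reductase that acts on the product of Hpgd, read 144 in Ebf2-/- and 172 in Ebf2+/-. Hpgd was the only gene of the breakdown route examined here past 2-fold by the probe set used.

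Among other receptors of the family, Tbxa2r, the thromboxane receptor, was 2.90-fold higher in Ebf2-/- (170.4 in Ebf2-/- and 58.8 in Ebf2+/-) and past 2-fold under all 10 other settings. Ptgir, the prostacyclin receptor, read 32.0 in Ebf2-/- and 17.1, under the floor, in Ebf2+/-, a fold of at least 1.80. Ptgfrn, a membrane protein that binds near the prostaglandin F receptor, read 331 in Ebf2-/- and 182 in Ebf2+/-. These were the 3 measured genes of 6. Their median log2 ratio of 0.86 was the value of Ptgfrn, which is listed beside the receptors, and the Ptgir ratio is a bound. Ptger3, Ptgdr and Ptgdr2 were below background on both arrays.

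The neighbouring leukotriene branch, which draws on the same arachidonate, was mostly silent. Of 12 genes with a probe set 4 were measured, of which 2 passed 2-fold upward and 1 downward in Ebf2-/- (median log2 ratio 0.36, but -0.32 without probe sets that end in _x_at or _s_at). Alox5ap, the helper protein of 5-lipoxygenase in leukocytes, read 71.9 in Ebf2-/- and 304 in Ebf2+/-, a log2 ratio of -2.08, while Alox5 itself was below background. The dipeptidase Dpep1, which trims leukotrienes, read 189.3 in Ebf2-/- and 31.2 in Ebf2+/-, 6.07-fold higher, and Ggt5, which acts just before it, read 65.1 in Ebf2-/- and 31.7 in Ebf2+/-, 2.05-fold higher, or 0.49 on the log2 scale with that pseudocount. Lta4h read 511 in Ebf2-/- and 636 in Ebf2+/-.

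**Figure D4:**
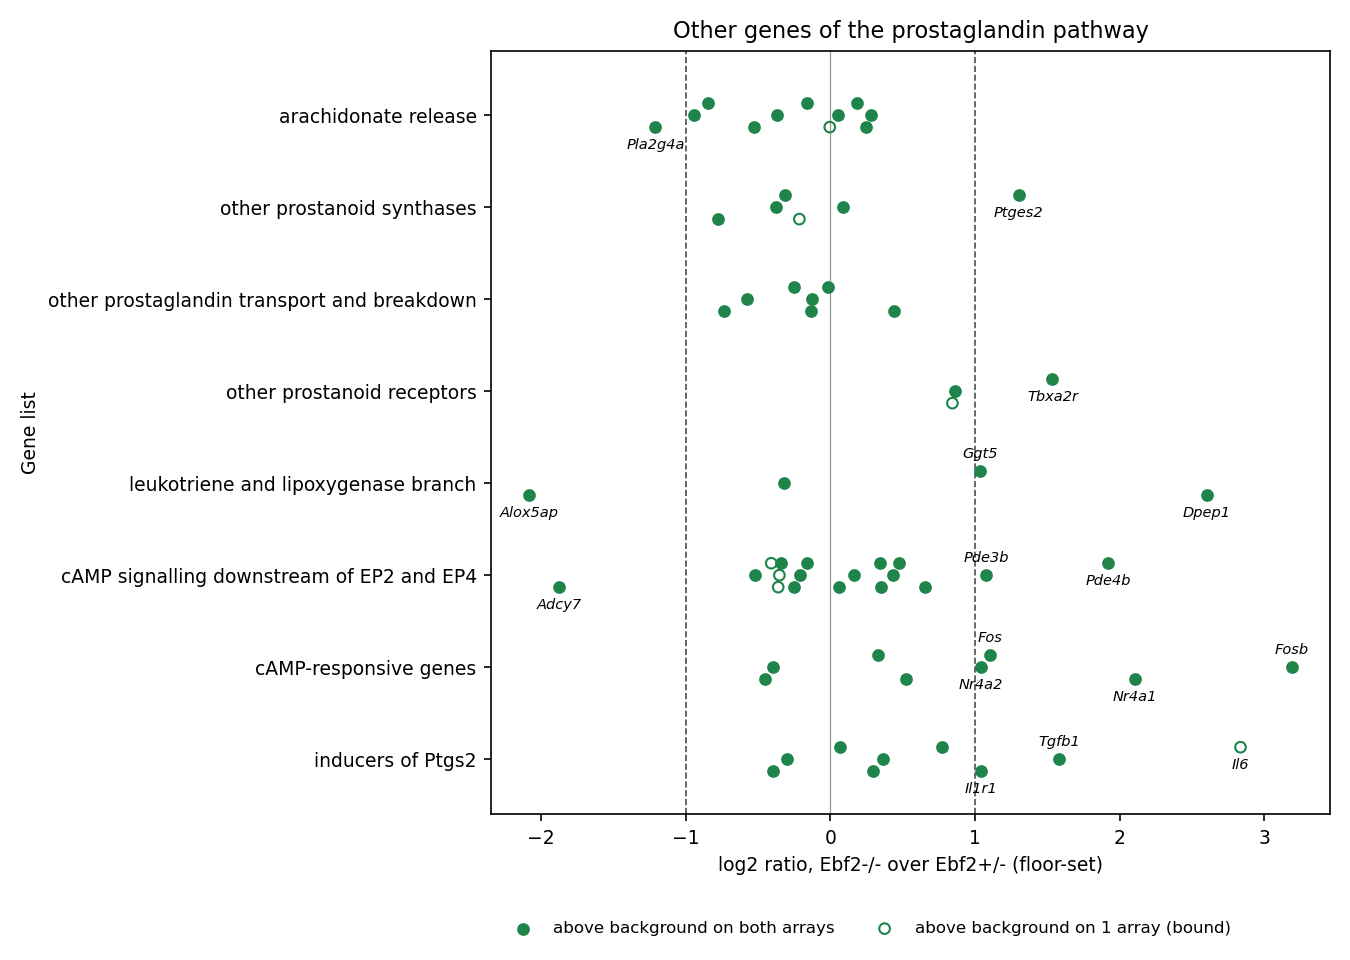
Floor-set log2 ratio of Ebf2-/- over Ebf2+/- for the measured genes of 8 lists around the prostaglandin route (filled, above background on both arrays; open, on 1 array only, a bound), with dashed lines at 2-fold and names for genes past it. Genes of transport and breakdown lie within 2-fold, whereas cAMP-responsive genes reach 3.19 at Fosb and 0 of them lie below -1.

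Ptger4 signals through cAMP, and genes of that route were compared next. Of 19 measured genes of cAMP production and relay, 2 passed 2-fold upward and 1 downward in Ebf2-/-, and the median log2 ratio was 0.06. The phosphodiesterase Pde4b, which degrades cAMP and is itself switched on by it, read 213 in Ebf2-/- and 56.2 in Ebf2+/-, 3.79-fold higher, and Pde3b read 259 in Ebf2-/- and 123 in Ebf2+/-, 2.11-fold higher. The cyclase Adcy7 read 78.8 in Ebf2-/- and 289 in Ebf2+/-, a log2 ratio of -1.87, and all 3 of its probe sets had the lower signal in Ebf2-/-. Adcy4 read 45.2 in Ebf2-/- and 28.7 in Ebf2+/-. The G protein subunit Gnas, named after its values were seen, read 8071 in Ebf2-/- and 5806 in Ebf2+/-.

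Genes known to answer cAMP were higher in Ebf2-/- or within 2-fold. Among 9 measured genes 4 passed 2-fold upward and 0 downward, and their median log2 ratio was 0.53, beside 0.03 over all measured genes. Fosb, a subunit of the AP-1 transcription factor, read 279 in Ebf2-/- and 30.6 in Ebf2+/-, 9.12-fold higher, and Fos 6119 in Ebf2-/- and 2846 in Ebf2+/-, 2.15-fold higher. The orphan nuclear receptor Nr4a1 read 670 in Ebf2-/- and 156 in Ebf2+/-, 4.30-fold higher, and Nr4a2 by its brightest probe set read 159.9 in Ebf2-/- and 77.8 in Ebf2+/-, 2.06-fold higher. The probe sets of Nr4a2 disagreed, since the other 3 above background had log2 ratios of 0.87, 0.23 and -0.26. The mean over all its probe sets was 0.45, with those below background on both arrays entered at the ratio of the floors. Ptgs2, known to be induced by cAMP in osteoblasts too, had the opposite order. So had 2 genes of the list with a fold. Dusp1, a phosphatase of MAP kinases, read 1482 in Ebf2-/- and 2027 in Ebf2+/-, and the transcription factor Crem 28.4 in Ebf2-/- and 37.3 in Ebf2+/-. Nr4a3 read 20.1, under the floor, in Ebf2-/- and 21.4 in Ebf2+/-, and had no fold. These 3 genes were named after their values were seen. The genes of this list also answer serum, handling and other signals, and which of these moved them was not tested.

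Factors known to induce Ptgs2, and their receptors and relays, were mostly higher in Ebf2-/- or within 2-fold. Among 10 measured genes 3 passed 2-fold upward in Ebf2-/- and 0 downward, and their median log2 ratio was 0.33. Of those with a fold, 2 had the lower signal in Ebf2-/-, the receptors Tnfrsf1b (112 in Ebf2-/- and 147 in Ebf2+/-) and Il17ra (111 in Ebf2-/- and 137 in Ebf2+/-). Tnf read 1.61, under the floor, in Ebf2-/- and 21.8 in Ebf2+/-. That Ebf2+/- signal was above its own floor but under the Ebf2-/- floor of 23.8, so Tnf had no fold. These 3 genes were chosen for naming after their values were seen. The cytokine Il6 read 127 in Ebf2-/- and 16.6, under the floor, in Ebf2+/-, at least 7.14-fold higher. Tgfb1 read 77.1 in Ebf2-/- and 25.8 in Ebf2+/-, 2.99-fold higher, and the interleukin-1 receptor Il1r1 read 369 in Ebf2-/- and 179 in Ebf2+/-, 2.06-fold higher. Il1rn, which blocks that receptor, read 102 in Ebf2-/- and 59.6 in Ebf2+/-. The ligands Il1a and Il1b were below background on both arrays.

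Markers of other cell types differed between the arrays alongside these genes. Of 15 macrophage and leukocyte markers with a probe set, 14 were measured and all 14 were at least 2-fold lower in Ebf2-/- (median log2 ratio -2.26). Itgam was below background on both arrays, and the values included Lyz2 (702 in Ebf2-/- and 2780.1 in Ebf2+/-), Csf1r (405 in Ebf2-/- and 1529 in Ebf2+/-) and Ctss (137 in Ebf2-/- and 859 in Ebf2+/-). The direction is that of Hpgd, Ptgs2, Pla2g4a, Alox5ap and Adcy7. Of 12 chondrocyte markers 10 were measured and 7 were at least 2-fold lower, with summed signals of 4252 in Ebf2-/- and 15340.2 in Ebf2+/-. The brightest were the cartilage genes Col2a1 (2592 in Ebf2-/- and 8542 in Ebf2+/-), Cnmd (481 in Ebf2-/- and 2773 in Ebf2+/-) and Col9a1 (345 in Ebf2-/- and 1788 in Ebf2+/-). Comp had the opposite order, at 395 in Ebf2-/- and 232 in Ebf2+/-. Sox9 was level, at 209 in Ebf2-/- and 213 in Ebf2+/-, and Col9a2 had no fold. Of 6 Schwann cell and neuron markers, all measured, 4 were at least 2-fold lower, with summed signals of 382 in Ebf2-/- and 1141 in Ebf2+/-. The brightest were S100b (141 in Ebf2-/- and 330.3 in Ebf2+/-), Ngfr (52.1 in Ebf2-/- and 372 in Ebf2+/-) and Tubb3 (75.3 in Ebf2-/- and 104 in Ebf2+/-). What part these shifts have in the lower prostaglandin genes was not tested.

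Markers that ran the other way were those of mesenchymal progenitors and fibroblasts and of adipocytes, in the direction of Ptger4, Tbxa2r and Pde4b. Of 9 mesenchymal progenitor and fibroblast markers, all measured, 6 passed 2-fold upward in Ebf2-/- and 0 downward, with summed signals of 17039.7 in Ebf2-/- and 6958 in Ebf2+/-. The brightest were Prrx1 (2868 in Ebf2-/- and 2295 in Ebf2+/-), Thy1 (3957 in Ebf2-/- and 970.3 in Ebf2+/-) and Lum (1954 in Ebf2-/- and 1121 in Ebf2+/-), of which Thy1 was past 2-fold and the other two were not. Of 6 adipocyte markers, all measured, 5 passed 2-fold upward and Cd36 downward, with summed signals of 2893 in Ebf2-/- and 818 in Ebf2+/-. The brightest were Lpl (1803 in Ebf2-/- and 611 in Ebf2+/-), Cebpa (349.6 in Ebf2-/- and 39.2 in Ebf2+/-) and Fabp4 (552 in Ebf2-/- and 18.4, just above the floor, in Ebf2+/-). Of 8 osteoblast markers 5 were measured, of which 2 passed 2-fold upward and 0 downward, with summed signals of 45486 in Ebf2-/- and 26253 in Ebf2+/-. A second probe set of Col1a1 had the opposite order, with a log2 ratio of -0.49. The 1 measured osteoblast marker lower in Ebf2-/-, Sp7, read 53.3 in Ebf2-/- and 83.7 in Ebf2+/-, under 2-fold. The part of these marker shifts in the higher genes was not tested. Endothelial cells make prostacyclin, and epithelial cells hold much Hpgd in other tissues. The part of either in the values here was not tested. Of 8 markers each, 2 endothelial genes and 4 epithelial genes were measured. The endothelial gene Tek read 46.5 in Ebf2-/- and 3.53, under the floor, in Ebf2+/-. Kdr, also endothelial, read 3.32, under the floor, in Ebf2-/- and 33.9 in Ebf2+/-. The brightest epithelial markers were Krt10 (105 in Ebf2-/- and 156 in Ebf2+/-), Epcam (83.3 in Ebf2-/- and 38.6 in Ebf2+/-) and Trp63. Trp63 read 14.2, under the floor, in Ebf2-/- and 19.5 in Ebf2+/- and had no fold, nor had Krt5. Below background on both arrays were the endothelial markers Pecam1, Cdh5 and Vwf, and the epithelial markers Krt8, Krt14 and Cdh1. Of mast cell and megakaryocyte markers, 3 of 10 were measured, namely Pf4, Itga2b and Ppbp. Pf4 read 119 in Ebf2-/- and 785 in Ebf2+/-, and Itga2b 43.4 in Ebf2-/- and 24.8 in Ebf2+/-. Ppbp read 19.0, under the floor, in Ebf2-/- and 18.0, just above the floor, in Ebf2+/-, and had no fold. The mast cell genes Cpa3, Cma1 and Kit were below background on both arrays.

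**Figure D5:**
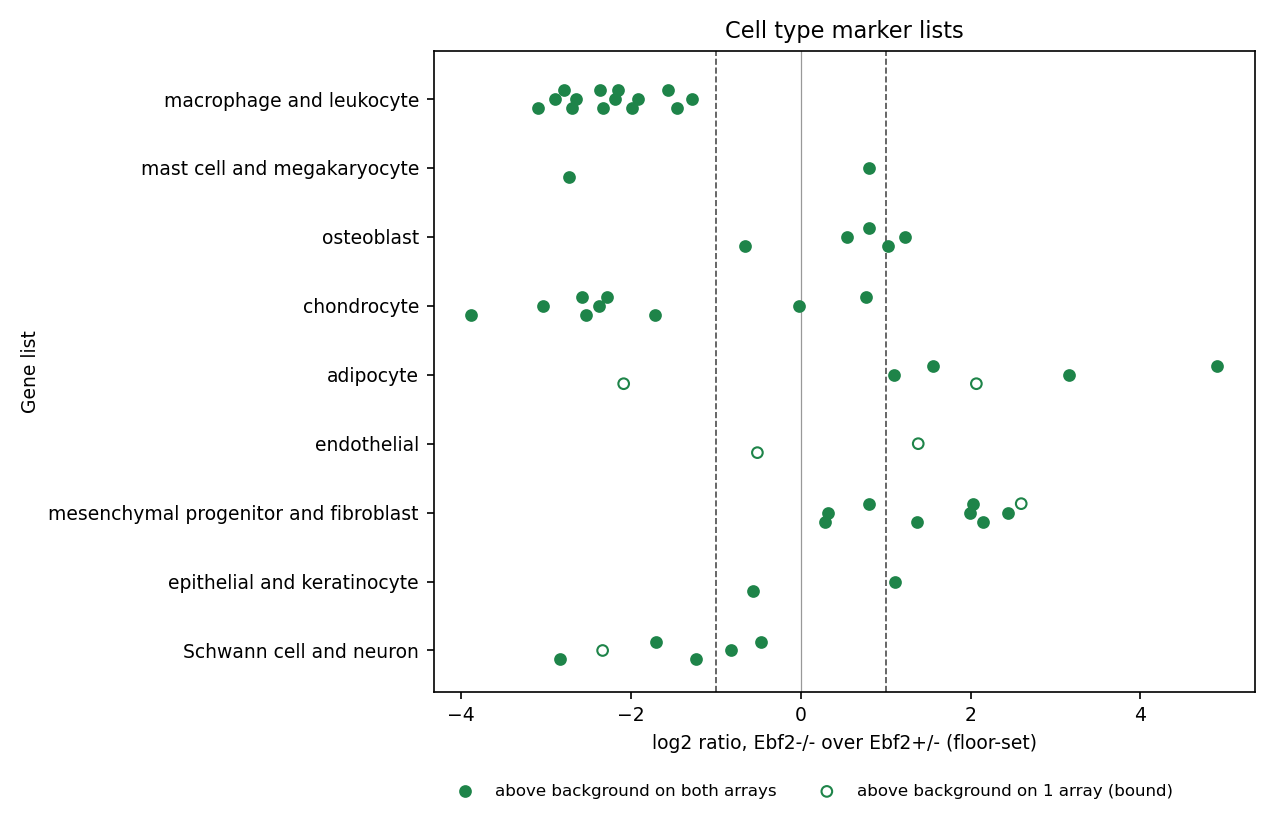
Floor-set log2 ratio of Ebf2-/- over Ebf2+/- for the measured genes of 9 cell type marker lists (filled, above background on both arrays; open, on 1 array only, a bound), with dashed lines at 2-fold. All 14 macrophage and leukocyte genes lie below -1, and all 9 mesenchymal progenitor and fibroblast genes lie above 0.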

How the data were processed

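RNA of Ebf2-/- and of Ebf2+/- cells was measured on 1 Affymetrix Mouse Genome 430 2.0 array each. The authors deposited MAS5 signals, a linear intensity per probe set. The name MAS5 comes from the submitters' processing notes, which give no version. After trimming 2% at each end, both deposited intensity columns averaged 100.001, so the authors' values carry a common scaling, which hides a shift shared by most genes.

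Gene symbols came from the platform annotation: 34958 probe sets had 1 symbol, 932 several and 9211 none. Where a gene had several probe sets, the brightest by mean log2 signal stood for it (18194 genes). Of the 11785 measured genes, 609 had no fold, since the signal on their array did not exceed the other floor. The 21 lists include 8 around the pathway and 9 of cell type markers, and hold some alternative symbols of the same gene. The genes named are all 10 members, the 4 measured genes of largest ratio per pathway list and the 3 brightest per marker list; others were named after their values were seen. Members and lists were chosen with earlier results of these data known. The procedure was tested on simulated data, with differences planted in genes of bright signal on both arrays. Only ratios of genes above background on both arrays were checked, so the handling of floors and bounds was not tested. The simulated noise was the spread between probe sets and does not include animals or cultures. Python 3.11.15, pandas 2.3.3 and statsmodels 0.14.6 were used.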

Additional observations from a re-analysis of the deposited data

How the results depend on the processing

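The floor, a pseudocount, the scaling and the choice of probe set were varied in 10 ways, 1 of them (a common floor of 23.8 on both arrays) chosen after seeing the data. In all of these Ptger4 stayed past 2-fold in the direction reported, as did Hpgd in the 9 that gave a value. The log2 ratios of Hpgd ran from -4.52 without a floor to -1.29 as a mean over probe sets. In that mean, a probe set below background on both arrays entered as the log2 ratio of the floors, 0.42. The second probe sets of Hpgd, Ptger4 and Ptgds entered so, and their means are not means of measured ratios alone. Without probe sets ending in _x_at or _s_at Hpgd was below background. Ptgs2 stayed lower in Ebf2-/- in all 10 and past 2-fold in 9, the exception being the pseudocount (log2 ratio -0.86). Of the prostaglandin genes at least 2-fold higher in Ebf2-/-, 1 was left in place of 2 under quantile normalization, lowess scaling, spike-in scaling, the mean over probe sets, the pseudocount and the common floor, because Ptgds fell under 2-fold. Of those at least 2-fold lower, 1 was left in place of 2 with the pseudocount and without probe sets ending in _x_at or _s_at.

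Over all genes, 742 passed 2-fold upward and 408 downward in Ebf2-/-. With spike-in scaling, which moved the median log2 ratio over genes that both arrays measured to -0.13, there were 566 higher and 557 lower. The pseudocount of 50 gave 280 higher and 134 lower, the ratios without a floor 997 higher and 932 lower, and the mean over probe sets 536 higher and 241 lower. The median log2 ratio of the leukotriene list turned to -0.32 without probe sets ending in _x_at or _s_at, where Ggt5 had no value; the other 7 pathway lists moved by less than 0.44 in every setting. Among the other pathway genes past 2-fold, Nr4a2, Fos, Pde3b, Il1r1, Ggt5, Ptges2, Tgfb1 and Pla2g4a were under 2-fold in at least 1 of the 10 settings and kept their direction wherever they had a value. No paired analysis was possible because each genotype has 1 array. Signals near the floor, such as those of Ptgds, Ptgfr and the second Ptgs2 probe set, limit what these arrays can separate.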
